A study of Homo sapiens with 6 samples.

Results

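The transcripts of beta-catenin, of the complex that destroys it and of the TCF/LEF factors it binds were followed in SW480, a cell line from a human colorectal adenocarcinoma, in cells given MPM-1 or its solvent DMSO for 24 h. The genes were chosen by name, as members of the pathway. They are CTNNB1, which encodes beta-catenin, the destruction complex genes APC, AXIN1, AMER1, GSK3B and CSNK1A1, and the factors TCF7, TCF7L1, TCF7L2 and LEF1. Of these 10 genes, 9 had a row among the 12982 genes measured, and LEF1 was not analysed here. There were 3 libraries per treatment, all from total RNA of cells of genotype WT, and MPM-1 is the manuscript's name for a mitochondrial probe molecule that the labels call WT4. The dose given to the sequenced cells is not named in the sources used here, and neither is it said whether the libraries of a treatment came from separate cultures, so the p-values measure only the spread between these libraries.

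In unstimulated cells, beta-catenin is held by the scaffolds AXIN and APC, phosphorylated first by casein kinase 1 alpha and then by GSK3 beta, and passed to the proteasome. A Wnt ligand at a Frizzled and LRP receptor pair disables this complex, and beta-catenin then enters the nucleus, where it binds a TCF/LEF factor and switches target genes on. In colorectal cancer the complex is commonly broken by mutation of APC, and SW480 is known for carrying a truncated APC protein. The study blotted beta-catenin as a protein, and the comparison here asks what its transcript and those of its partners did under MPM-1.

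The windows around the RefSeq transcription start sites of all 10 genes were read on GRCh38.p14, from 250 bases before to 50 bases after each start, giving 15 windows of 300 bases. They were searched on both strands for the 4 forms of the short motif that TCF/LEF factors bind. These are CTTTGAA and the form that ends otherwise, CTTTGAT, together with CTTTGTA and its counterpart, which is CTTTGTT. A match was found in 2 of the 15 windows and in 13.8% of the 35116 windows of all genes. Both matches lay at second start sites of TCF genes, and they are shown because the 2 genes moved in opposite directions. The single AMER1 window, shown because AMER1 had the largest change, held no match. A match or its absence describes these letters only. The windows lie at chr5:134123368-134123667 (plus strand) for TCF7, chr10:113126383-113126682 (plus strand) for TCF7L2 and chrX:64205659-64205958 (minus strand) for AMER1. Capitals mark the motif, which in TCF7 is read on the opposite strand.
TCF7, second window: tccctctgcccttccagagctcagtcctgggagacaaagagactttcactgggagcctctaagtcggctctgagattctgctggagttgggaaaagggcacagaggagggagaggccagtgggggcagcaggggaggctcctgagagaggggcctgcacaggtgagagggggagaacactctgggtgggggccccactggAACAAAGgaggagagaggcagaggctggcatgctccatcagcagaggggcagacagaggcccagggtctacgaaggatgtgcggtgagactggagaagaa
TCF7L2, second window: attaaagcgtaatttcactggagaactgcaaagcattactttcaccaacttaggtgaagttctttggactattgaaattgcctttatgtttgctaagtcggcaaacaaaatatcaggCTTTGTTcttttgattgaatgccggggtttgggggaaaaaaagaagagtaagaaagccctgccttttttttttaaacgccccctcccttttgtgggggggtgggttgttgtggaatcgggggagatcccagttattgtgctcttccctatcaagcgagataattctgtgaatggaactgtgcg
AMER1: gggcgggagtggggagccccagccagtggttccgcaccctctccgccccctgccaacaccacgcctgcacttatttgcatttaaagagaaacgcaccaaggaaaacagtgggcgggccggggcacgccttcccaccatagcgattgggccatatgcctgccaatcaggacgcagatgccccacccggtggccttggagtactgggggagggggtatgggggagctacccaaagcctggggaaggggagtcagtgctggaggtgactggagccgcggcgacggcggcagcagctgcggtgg

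The DMSO libraries held 32095456 to 40269820 counts each and the MPM-1 libraries 31733667 to 35403841, and the treatments separated on the first principal component, which held 72.8% of the variance. All 9 markers fixed for colorectal epithelium were measured, with a summed level of 4861 to 5586 FPKM (fragments scaled for transcript length and depth, as deposited) in DMSO and 6760 to 7228 FPKM in MPM-1. Most of this sum was keratin, with KRT8, KRT18 and KRT19 at 2124, 1234 and 1206 FPKM in DMSO and 2517, 2049 and 2015 FPKM in MPM-1. These 3 genes and CDH1 rose, CDX1, CDX2, VIL1 and CDH17 fell by 0.98, 2.20, 0.88 and 0.47 on the log2 scale, and EPCAM did not pass. Of 4 immune markers, CD68 and CD79A were measured, summing to 32.9 to 47.4 FPKM in DMSO and 70.6 to 76.5 FPKM in MPM-1, while PTPRC and CD3E were not analysed here. CD68 made up nearly all of that sum, with means of 37.2 FPKM in DMSO and 71.2 FPKM in MPM-1, against 1.46 and 2.60 FPKM for CD79A. Of 3 fibroblast markers 2 were measured, at 0.760 to 0.919 and 0.310 to 0.440 FPKM in sum, and no endothelial marker had a value. The part of these shifts in the results below was not tested.

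All 9 genes measured changed. Of these, 5 rose (CTNNB1, AXIN1, GSK3B, CSNK1A1 and TCF7) and 4 fell (APC, AMER1, TCF7L1 and TCF7L2) at an adjusted p under 0.05 in edgeR's quasi-likelihood test, in which 27.7% of all genes rose and 28.8% fell. The rises were small, between 1.20- and 1.60-fold, whereas 3 of the 4 falls were over 2-fold. With a stricter call, an adjusted p under 0.01 with a log2 fold change reaching 1 in either direction (a differentially expressed gene, DEG), APC and AMER1 were lower, as were 8.75% of all genes, while 5.58% of all genes were higher. The libraries of the 2 treatments did not overlap for any of the 9 genes, which was also so for 64.3% of all genes. No gene was lost to the filter on low counts. The median log2 fold change was 0.27 over the 9 genes and -0.026 over all genes.

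**Figure D1:**
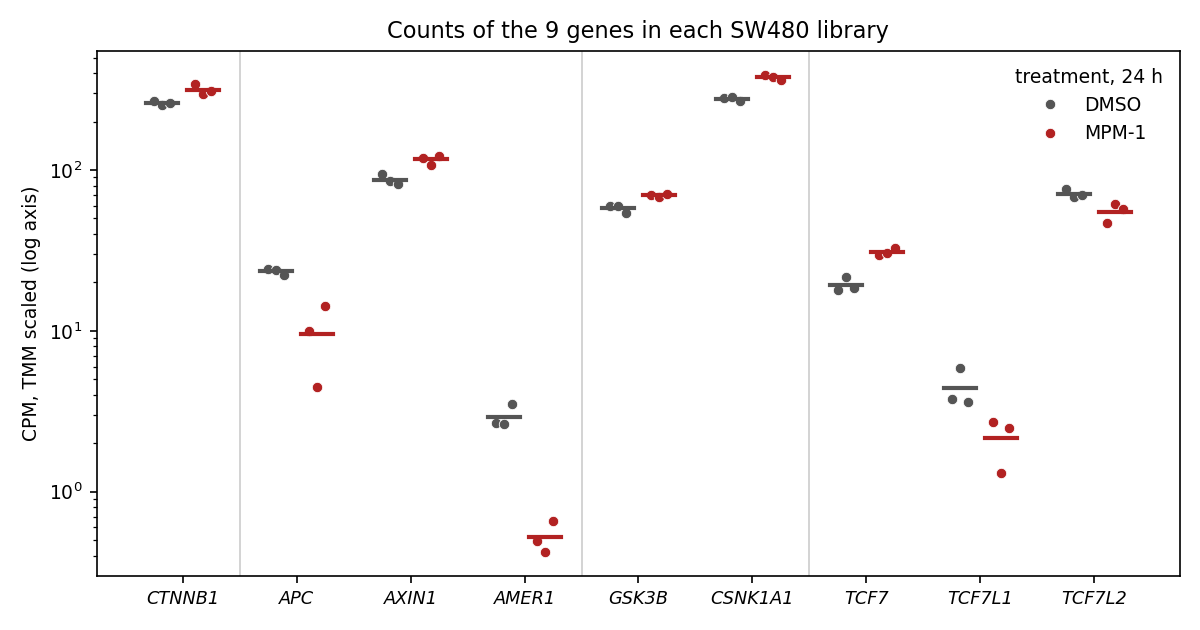
Level of each of the 9 genes in every library, in CPM (counts scaled to a common depth with TMM factors) on a log axis. Points are the 3 DMSO libraries (grey) and the 3 MPM-1 libraries (red), horizontal bars are their means, and vertical lines separate beta-catenin, scaffolds, kinases and TCF factors. MPM-1 points lie above DMSO for CTNNB1, AXIN1, GSK3B, CSNK1A1 and TCF7 and below it for the other 4 genes.

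CTNNB1 (ENSG00000168036, chr3:41194741-41260096, plus strand, GRCh38) was the most abundant of the 9 transcripts per length. It stood at 267, 255 and 261 CPM in the DMSO libraries and at 344, 297 and 309 CPM in the MPM-1 libraries. Every MPM-1 library was above every DMSO library, and the first lay furthest above. The mean rose from 261 ± 5.95 to 317 ± 24.4 CPM (SD, n = 3), a log2 fold change of 0.28 (SE 0.077, 95% interval 0.10 to 0.45, adjusted p = 0.0122). The deposited FPKM of CTNNB1 showed a smaller difference, 75.9 ± 3.61 against 85.1 ± 4.56 (SD, n = 3), also without overlap. On that scale limma gave a log2 fold change of 0.16 that did not pass (adjusted p = 0.157). With counts scaled by library size alone it was 0.13 (adjusted p = 0.137), where the median of all genes was -0.18. Relative to that median CTNNB1 stood at 0.30, the same as its 0.30 in the TMM-scaled counts and close to its 0.31 on the FPKM scale. CTNNB1 overlaps ULK4 on the other strand, which was scarce (2.76 CPM in DMSO and 4.44 CPM in MPM-1) and did not pass. As in any bulk measurement, a change in the share of cells with a transcript and a change in its level per cell cannot be told apart.

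The scaffolds moved in different directions: APC and AMER1 fell, and AXIN1 rose. APC (ENSG00000134982, chr5:112707498-112846239, plus strand), the large scaffold of the complex and the main tumor suppressor of the colon, had 24.2, 23.8 and 22.3 CPM in DMSO. In MPM-1 it had 10.0, 4.45 and 14.3 CPM. The DMSO libraries lay close together, while the MPM-1 libraries spread over 3.22-fold, the second lowest and the third highest, and all 3 were below DMSO. The mean fell from 23.4 ± 1.00 to 9.61 ± 4.95 CPM (SD, n = 3), a log2 fold change of -1.28 (SE 0.32, 95% interval -2.00 to -0.56, adjusted p = 0.00727), or 2.43-fold lower. The fall passed an adjusted p of 0.05 with any 1 library left out. The DEG call did not hold without any of the DMSO libraries or without the first MPM-1 library (adjusted p 0.0158 to 0.0234), nor without the second MPM-1 library, where the log2 fold change was -0.92. DESeq2 placed APC at an adjusted p of 0.0138 and called TCF7L1 (adjusted p = 0.00867) beside AMER1 instead. The protein-coding gene AC008575.1 overlaps APC on the same strand and was not analysed here, so reads in that overlap cannot be assigned.

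AMER1 (ENSG00000184675, chrX:64185117-64205744, minus strand), a membrane protein that brings APC to the plasma membrane, showed the largest change of the 9 genes. It had 88, 113 and 139 reads in the DMSO libraries, or 2.67, 2.62 and 3.49 CPM. It had 15, 13 and 22 reads in the MPM-1 libraries, or 0.492, 0.423 and 0.655 CPM. The highest MPM-1 library was thus well under the lowest DMSO library. The mean fell from 2.92 ± 0.490 to 0.523 ± 0.119 CPM (SD, n = 3), a log2 fold change of -2.47 (SE 0.32, 95% interval -3.18 to -1.76, adjusted p = 0.000161), or 5.54-fold lower. With 1 library left out the value ran from -2.65 to -2.31 and the DEG call held each time. Levels were low, with a mean FPKM of 0.353 in DMSO and 0.0558 in MPM-1. On log2(FPKM + 0.1), a scale that compresses low genes, the log2 fold change was -1.53 (adjusted p = 0.000298).

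AXIN1 (ENSG00000103126, chr16:287440-352673, minus strand), the scaffold that limits assembly of the complex, stood at 94.1, 85.2 and 81.9 CPM in DMSO and at 119, 108 and 122 CPM in MPM-1. All MPM-1 libraries were above DMSO. The mean rose from 87.1 ± 6.33 to 116 ± 7.26 CPM (SD, n = 3), a log2 fold change of 0.42 (SE 0.084, 95% interval 0.23 to 0.61, adjusted p = 0.00215). APC and AMER1 have the longest annotated transcripts of the 9 genes, 10701 and 8443 bases. The 1002 genes with a transcript of at least 8000 bases had a median log2 fold change of 0.086, and 23.3% of them fell, and the 2284 genes below 5 CPM in DMSO, where AMER1 lies, had a median of -0.11, with 24.5% falling.

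Both kinase genes rose. CSNK1A1 (ENSG00000113712, chr5:149492197-149551552, minus strand), the casein kinase that primes beta-catenin, had 279, 285 and 270 CPM in DMSO and 392, 381 and 365 CPM in MPM-1. Its libraries lay close together within each treatment and did not overlap between them, with a mean of 278 ± 7.43 against 380 ± 13.7 CPM (SD, n = 3). The log2 fold change was 0.45 (SE 0.068, 95% interval 0.30 to 0.60, adjusted p = 0.000422). GSK3B (ENSG00000082701, chr3:119821323-120094417, minus strand), the kinase that marks primed beta-catenin for degradation, had 59.8, 59.6 and 53.8 CPM in DMSO and 69.7, 67.8 and 71.0 CPM in MPM-1. The gap between the treatments exceeded the spread within each. The mean was 57.8 ± 3.39 in DMSO and 69.5 ± 1.62 CPM in MPM-1 (SD, n = 3), a log2 fold change of 0.27 (SE 0.076, 95% interval 0.096 to 0.44, adjusted p = 0.0138). This call was lost without the third DMSO library (0.22, adjusted p = 0.0650) and in limma on log2(FPKM + 0.1) without a filter (0.29, adjusted p = 0.0555). It was also lost with scaling by library size alone (0.12, adjusted p = 0.212), where GSK3B still stood 0.29 above the median of all genes.

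**Figure D2:**
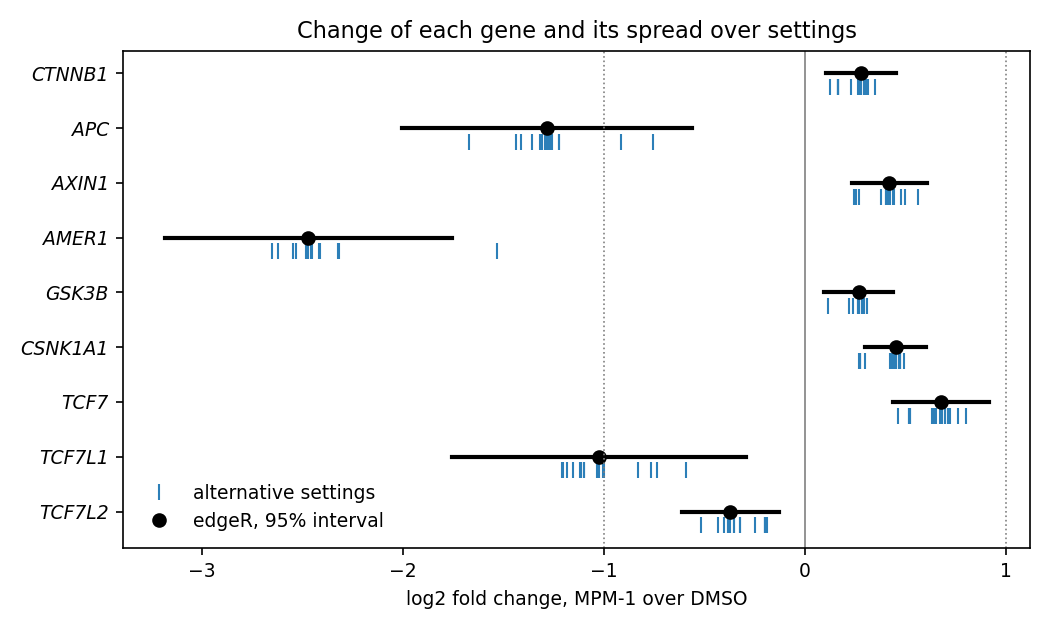
Log2 fold change of each gene, MPM-1 over DMSO. Black points and lines are the edgeR value and its 95% interval, blue ticks are the values under the alternative settings, and dotted lines mark a log2 fold change of 1 in size. No tick crosses 0. The AMER1 interval, -3.18 to -1.76, lies wholly beyond -1, while those of APC and TCF7L1 cross it.

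The 3 TCF genes measured moved apart: TCF7 rose, while TCF7L1 and TCF7L2 fell. TCF7 (ENSG00000081059, chr5:134114711-134151865, plus strand), which encodes TCF-1 and is itself a Wnt target in the intestine, had 18.1, 21.6 and 18.4 CPM in DMSO and 29.6, 30.5 and 32.7 CPM in MPM-1. The 3 MPM-1 libraries lay close together and above all DMSO libraries. The mean rose from 19.4 ± 1.93 to 30.9 ± 1.63 CPM (SD, n = 3), a log2 fold change of 0.67 (SE 0.11, 95% interval 0.44 to 0.91, adjusted p = 0.000513), the largest rise of the 9 genes. The gene overlaps SKP1 on the other strand, which rose by 0.45 on the log2 scale (259 to 354 CPM). Whether the counting used strand is not given in the sources used here, so reads in the overlap cannot be assigned.

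TCF7L2 (ENSG00000148737, chr10:112950250-113167678, plus strand) encodes TCF-4, the main partner of beta-catenin in the colon. It had 75.9, 68.0 and 70.0 CPM in DMSO and 46.6, 61.5 and 57.3 CPM in MPM-1. The first MPM-1 library was the lowest, and the second came nearest to DMSO. The mean fell from 71.3 ± 4.10 to 55.1 ± 7.66 CPM (SD, n = 3), a log2 fold change of -0.37 (SE 0.11, 95% interval -0.61 to -0.13, adjusted p = 0.0143). This fall was smaller in the deposited FPKM, 19.1 ± 0.542 against 16.7 ± 1.41 (SD, n = 3), where limma gave -0.20 (adjusted p = 0.114), which is -0.053 relative to the median of all genes on that scale, against -0.35 relative to it in the counts.

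For TCF7L2 the counts and the FPKM thus differed in the size of the change. Its count per FPKM, scaled by library and taken relative to the gene's own level, was 1.13, 1.11 and 1.12 in DMSO and 0.757, 1.10 and 0.850 in MPM-1. All MPM-1 values were lower, the second by little. The log2 change of this ratio was -0.33, larger in size than in 97.6% of 12887 genes, of which the middle 90% lay between -0.16 and 0.13. For APC it was -0.27 and for GSK3B -0.17, with libraries that overlapped between treatments. The other 6 genes lay between -0.042 and 0.024. The cause of this shift was not tested, and no values by transcript were used. TCF7L2 has 30 annotated transcripts in GENCODE 29, APC 10 and GSK3B 5. Of the other 6 genes, CTNNB1 has 56, TCF7 24, CSNK1A1 11, AXIN1 5, TCF7L1 4 and AMER1 2.

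TCF7L1 (ENSG00000152284, chr2:85133410-85310388, plus strand) encodes TCF-3, known mainly as a repressor of Wnt targets, and was the scarcest TCF transcript. It had 125, 252 and 143 reads in DMSO, or 3.79, 5.84 and 3.59 CPM. It had 83, 40 and 83 reads in MPM-1, or 2.72, 1.30 and 2.47 CPM. The second DMSO library was the highest and the second MPM-1 library the lowest of the 6, and the remaining libraries were separated by less than 1 CPM at the nearest. The mean fell from 4.41 ± 1.24 to 2.17 ± 0.760 CPM (SD, n = 3), a log2 fold change of -1.02 (SE 0.33, 95% interval -1.75 to -0.30, adjusted p = 0.0224). The call was lost without the second DMSO library (-0.77, adjusted p = 0.104), without the second MPM-1 library (-0.74, adjusted p = 0.0609) and with an offset for GC content and length (-0.83, adjusted p = 0.0536).

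Per length, TCF7L2 remained the leading TCF transcript and TCF7 gained on it. TCF7 took 22.2, 26.4 and 24.7% of the summed FPKM of the 3 genes in the DMSO libraries and 34.3, 37.6 and 35.0% in the MPM-1 libraries. TCF7L2 took 73.1, 66.4 and 70.7% in DMSO and 62.6, 60.8 and 62.4% in MPM-1. TCF7L1 took 4.72, 7.21 and 4.64% in DMSO and 3.13, 1.60 and 2.59% in MPM-1. None of the 3 shares overlapped between treatments. The ratio of TCF7L2 to TCF7 went from 2.89 ± 0.391 to 1.74 ± 0.108 (SD, n = 3), while their total with TCF7L1 was 27.3 ± 0.696 and 26.9 ± 2.00 FPKM. These shares are a description, since 3 libraries against 3 cannot reach a p under 0.05 in an exact permutation test. They also carry the shift in count per FPKM of TCF7L2. With counts per kilobase of the longest transcript in place of FPKM, TCF7L2 took 77.1% in DMSO and 67.0% in MPM-1.

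**Figure D3:**
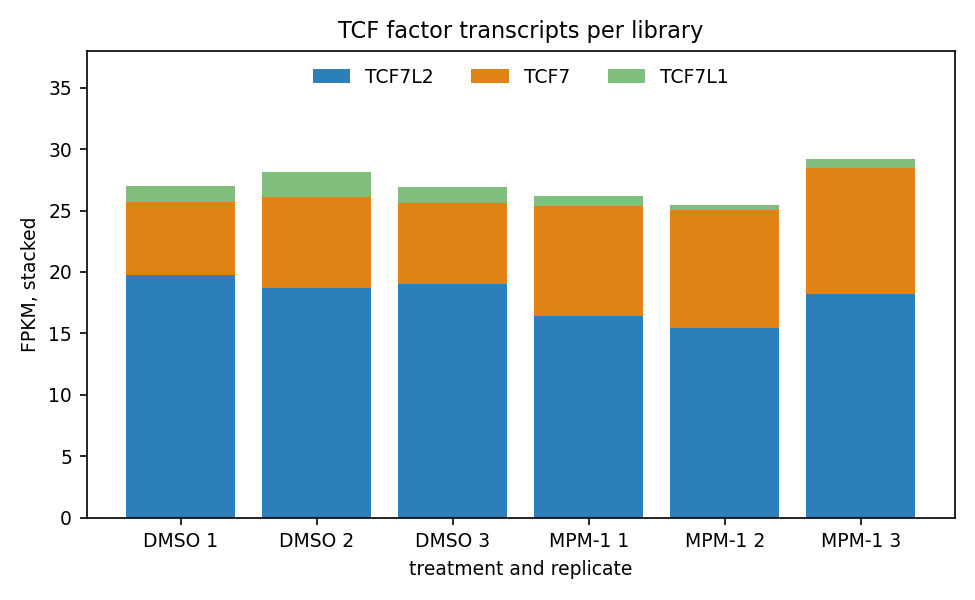
FPKM of TCF7L2, TCF7 and TCF7L1, stacked, in each of the 6 libraries. The stacks are of similar height, with means of 27.3 and 26.9 FPKM, while the TCF7 segment is thicker in the 3 MPM-1 libraries and the TCF7L1 segment thinner.

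The order of the 9 genes by mean FPKM was the same in both treatments. In DMSO it ran from CTNNB1 (75.9) over CSNK1A1 (55.4), AXIN1 (25.9), TCF7L2 (19.1), GSK3B (8.32), TCF7 (6.69), APC (2.38) and TCF7L1 (1.52) to AMER1 (0.353). No neighbours in this order overlapped in DMSO. In MPM-1, GSK3B (9.13 to 11.0 FPKM) overlapped TCF7 (8.98 to 10.2 FPKM), and APC (0.560 to 1.68 FPKM) overlapped TCF7L1 (0.408 to 0.818 FPKM).

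Among the 11707 genes that carried a symbol and averaged 50 counts or more, the profiles across the 6 libraries most like that of CTNNB1 belonged to NAA16, a subunit of an N-terminal acetyltransferase, with a root mean square difference of 0.018 in centered log2 CPM, to SZRD1 (0.025) and to PPME1 (0.026), a methylesterase of the phosphatase PP2A. The profiles most like that of AMER1 belonged to C2CD4C (0.13), TCF19 (0.18) and GRAMD1B (0.20). TCF19 shares its name but not its family with the TCF/LEF factors, and went from 18.2 to 4.12 CPM. These likenesses are descriptions over 6 libraries.

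Around the 9 genes, 117 of 154 other listed genes of the pathway were measured. Of these, 33 rose (28.2%), 44 fell (37.6%) and 40 did not pass, with a median log2 fold change of -0.13. Over all genes 27.7% rose and 28.8% fell, so the share that rose was near that of all genes. The same 2 shares are the background for the main counts of each list below, and the alternatives have others. With library size alone, 2589 of the 12982 genes rose and 4871 fell. Limma on log2(FPKM + 0.1) gave 2245 rises and 3988 falls among 11497 genes with the FPKM filter, which also removed some listed genes. Without that filter it gave 2332 and 4481 among 12982. An offset for GC content and length gave 3854 and 3196 among 12127. Among the measured genes, AXIN2, LGR5, NKD1, RNF43, ZNRF3, NOTUM and APCDD1 stand in the target list and also in another list. All of them fell, so the falls in these lists are in part those of the same genes. RNF43, ZNRF3, NOTUM and APCDD1 are also among the inhibitors. Of 11 ligand and ligand secretion genes, 3 rose (27.3%) and 4 fell (36.4%). Only 1 rose with library size alone or without any 1 of the DMSO libraries or the third MPM-1 library. With limma on log2(FPKM + 0.1), 1 rose and 1 fell among genes averaging 1 FPKM or more. Without that filter 1 rose and 5 fell. WNT10B, a ligand of the canonical branch, fell by 2.25 on the log2 scale (5.30 to 1.11 CPM, adjusted p = 5.5e-05), and WNT6 rose by 1.50 (1.53 to 4.32 CPM, adjusted p = 0.000544). Of 16 receptors and co-receptors, 9 fell (56.2%) and 1 rose (6.25%), with a median of -0.76. With limma, 5 fell on the filtered FPKM and 10 fell without the filter. FZD4, a Frizzled receptor, went from 8.92 to 1.32 CPM (log2 fold change -2.76, adjusted p = 1.7e-05), while LGR6, an R-spondin receptor, went from 4.22 to 7.72 CPM (0.87, adjusted p = 0.00623).

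All 7 secreted and membrane inhibitors measured of the 17 listed fell, with a median of -1.45. DKK3 had the largest fall among them (-2.28, adjusted p = 0.0235), from 124, 140 and 131 reads in DMSO to 36, 0 and 31 reads in MPM-1. Its call was lost without the first or the second DMSO library (adjusted p up to 0.0560). Of 33 other destruction complex and cytoplasmic genes, 14 rose (42.4%) and 7 fell (21.2%), with a median of 0.12. Rises did not outnumber falls with library size alone, where 9 rose and 10 fell, against 2589 and 4871 of all 12982 genes. With limma on the filtered FPKM at a pseudocount of 0.1, 7 rose and 7 fell, against 2245 and 3988 of 11497 genes. Falls thus exceeded rises over all genes in both settings. TNKS, the tankyrase that marks AXIN for degradation, rose by 0.90 (40.1 to 74.9 CPM, adjusted p = 9.0e-05), and AXIN2, the AXIN1 paralog that Wnt signaling induces, fell by 2.94 (136 to 17.8 CPM, adjusted p = 8.8e-06).

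Of 27 nuclear partners of beta-catenin and the TCF factors, 9 fell (33.3%), 5 rose (18.5%) and 13 did not pass, with a median of -0.12. With limma on FPKM 2 rose, and with the offset for GC content and length 5 fell. BCL9L, a coactivator that binds beta-catenin, rose by 0.77 (60.5 to 103 CPM, adjusted p = 0.00104), and TLE2, a corepressor of the TCF factors, fell by 1.86 (7.93 to 2.18 CPM, adjusted p = 4.6e-05). Of 7 cadherin and catenin junction genes, 6 rose (85.7%) and CDH3 did not pass, with a median of 0.74. CTNNA1, the alpha-catenin that links these junctions to actin, went from 21.8 to 53.1 CPM (1.28, adjusted p = 5.6e-05). CDH1, which encodes E-cadherin, and JUP, which encodes plakoglobin, rose by 0.82 and 0.74, and were named after their values were seen. Of 23 targets of the pathway in intestinal epithelium, 15 fell (65.2%), 4 rose (17.4%) and 4 did not pass, with a median of -0.59. With limma, 2 rose on the filtered FPKM and 3 rose without the filter. TDGF1, a co-receptor of Nodal, rose most (3.23, adjusted p = 1.2e-05), from 15, 30 and 29 reads in DMSO to 172, 197 and 193 reads in MPM-1, and this gene has near-identical pseudogene copies with which reads may be shared.

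**Figure D4:**
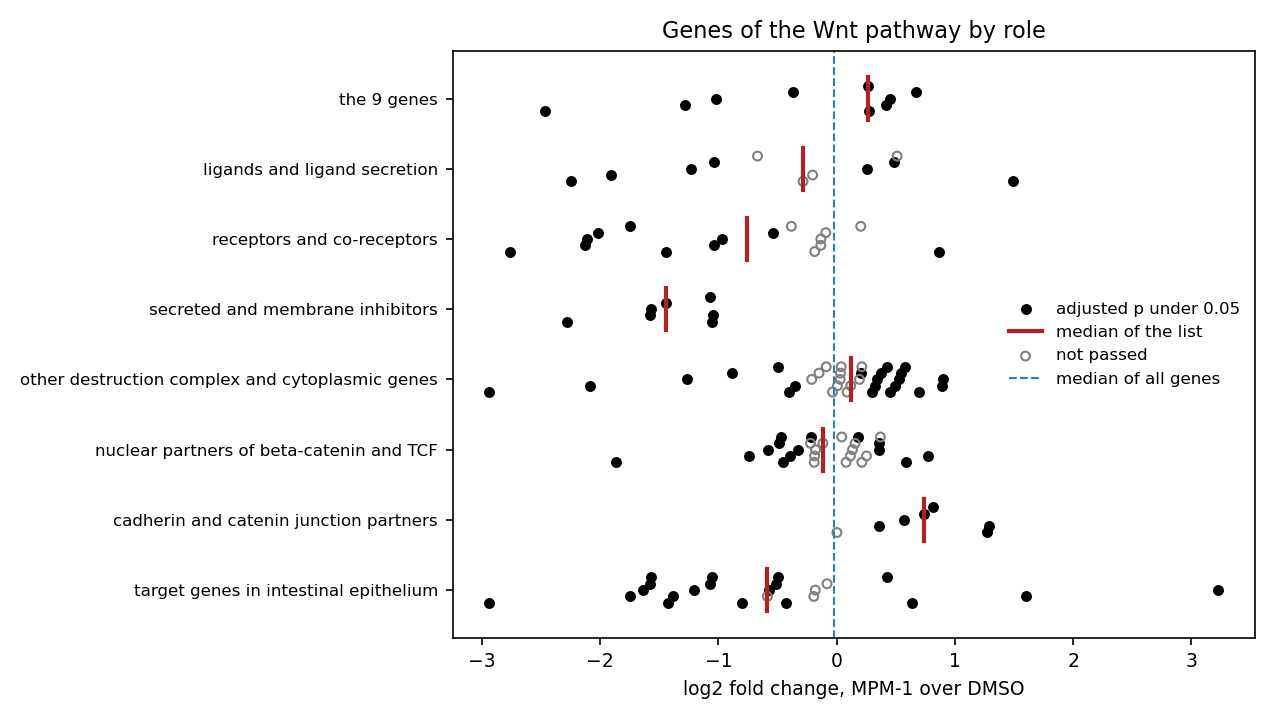
Log2 fold change, MPM-1 over DMSO, of the 9 genes and of the other measured genes of the pathway by role. Filled points passed an adjusted p under 0.05, open points did not, red bars are list medians and the dashed line is the median of all genes at -0.026. The inhibitors and most targets lie left of that line and the junction genes right of it or on it.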

How the data were processed

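Expression was measured by RNA sequencing in 6 libraries of SW480 cells, 3 with DMSO and 3 with MPM-1 for 24 h, grouped from the sample labels. The authors deposited 1 table that gives every gene a raw count and an FPKM in each library, the latter scaled by them for length and depth. Its log2 fold changes and FDR, the authors' own comparison, were not used. The submitters' processing notes name HISAT2, DESeq2 and the mouse build mm10, whereas the identifiers are human. The counter and annotation are not given in the sources used here. Every gene had at least 115 counts in total.

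The main test was edgeR's quasi-likelihood test (edgeR 4.0.16, R 4.3.3) with TMM scaling over all 12982 genes, Benjamini-Hochberg adjusted, without covariates. CPM used TMM sizes. Alternatives were DESeq2 1.42.0 (size factors, Wald test), library size alone, limma 3.58.1 on log2(FPKM + 0.1, 1 or 0.01) for genes averaging 1 FPKM or more, no filter or a mean of at least 50 counts instead of filterByExpr, the replicate block and each library left out. Added after seeing the data were limma without the filter and a loess offset for GC content and length. The edgeR test was checked on simulated counts. Coordinates came from GENCODE 29 (GRCh38). Genes and lists were chosen with earlier results of these data known. Named outside the 10 genes were the largest rise and fall in each list and the 3 profiles nearest to CTNNB1 and AMER1. Outside this rule, the markers, the genes overlapping a member (SKP1, ULK4, AC008575.1) and the genes in more than 1 list were named. So were CDH1, CDH3 and JUP, after their values were seen.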

Additional observations from a re-analysis of the deposited data

How the results depend on the processing

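All 9 genes kept their direction in every alternative that gave a value, and AXIN1, CSNK1A1, TCF7 and APC kept an adjusted p under 0.05 throughout, as did AMER1 wherever it had a value. The edgeR fit without filterByExpr only repeats the main fit, since that filter removed no gene. With library size alone, 3 genes rose. With limma on log2(FPKM + 0.1), 2 genes fell, 0 were DEGs (AMER1 was below the filter, and APC had an adjusted p of 0.0191) and 17 other Wnt genes rose. With pseudocounts of 1 and 0.01 the values were 2, 0 and 18 and 2, 0 and 17. In the limma fit without the filter 3 genes rose, 1 was a DEG and 18 other Wnt genes rose, against 33 in the counts. Over all 12982 genes, 3596 rose in the main fit, 2589 with library size alone and 2332 with limma without the filter. With the filter and a pseudocount of 0.1, 2245 of 11497 rose, so rises were fewer over all genes as well. At an adjusted p under 0.01, 3 genes rose and 2 fell. Leaving out 1 library gave 1 to 2 DEGs. TCF7L2 took 77.1% (DMSO) and 67.0% (MPM-1) of the TCF transcripts by counts per kilobase, against 70.0% and 61.9% by FPKM. The cause of these shifts was not tested, apart from the filter that removed AMER1. Among all DEGs the share that was higher was 39% with TMM, 26.8% with library size alone, 29.3% with limma at a pseudocount of 0.1 and 47.1% with the offset for GC content and length.

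Same-numbered libraries of the 2 treatments deviated from their group means with correlations of 0.021, 0.11 and -0.074, so the numbers were not taken to pair them. With the replicate block, 5 genes rose, 4 fell and 2 were DEGs, and 30 other Wnt genes rose and 42 fell. Depth limited AMER1 in MPM-1 (13 to 22 reads) and TCF7L1 (40 to 83 reads) most.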
